A study of Mus musculus with 6 samples.

Results

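The early B-cell factors Ebf1, Ebf2, Ebf3 and Ebf4 are the 4 mouse members of a small family of transcription factors, and the H3K4me1 peaks around their genes were described in embryonic whisker pads. The members were chosen by name, as 4 of 21755 protein-coding genes. A peak was counted for a gene when it overlapped the gene body with 5 kb on each side, or when it lay up to 300 kb away and the nearest protein-coding start site was that gene's. By this rule the genes held 44 of the 16788 peaks of replicate 1, 31 of 12969 in replicate 2 and 34 of 13998 in replicate 3. Merging peaks that shared at least 1 base across replicates gave 47 regions for the family, of 19251 in the whole series.

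The series holds 6 samples from wild-type whisker pads at embryonic day 12, of strain B6/J2, each a whole pad digested to single cells. An H3K4me1 antibody was used for 3 of them and IgG, as a control, for the others. The IgG libraries are not analysed here, and the values therefore lack a measured background. The samples form 1 group with no treatment and no second genotype, and the labels do not say whether the 3 pads came from separate embryos, so the spread between replicates may be technical. The source labels of replicates 2 and 3 name adult kidney, while their titles name whisker pad. Of 12 marker genes of facial mesenchyme, 12, 12 and 11 had a peak over the body or within 5 kb in replicates 1, 2 and 3. Of 12 marker genes of adult kidney, 3, 3 and 1 did, and 1 gene had a peak in all 3 replicates. The 9 with none in any replicate included Umod, Nphs1 and Slc34a1. The surface ectoderm list had 9, 9 and 5 of 12 genes with a peak, and the endothelial list 4, 3 and 3 of 10. Over all protein-coding genes such a peak was found for 24.9%, 22.6% and 19.6%, so the kidney counts of replicates 1 and 2 were at this share, and those of facial mesenchyme were far above it in every replicate. Because a whole pad holds many cell types, fewer cells with the mark and less of the mark per cell cannot be told apart.

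Early B-cell factors bind DNA as dimers through a zinc-containing domain and a helix-loop-helix, at a palindromic site with the core CCCNNGGG. Ebf1 is known as a factor without which B cells do not form, Ebf2 as a factor of brown and beige fat cells and of migrating neurons, Ebf3 as a factor of neurons and muscle, and Ebf4 as a member found in olfactory neurons. In the embryo the family is also active in mesenchyme. H3K4me1 denotes monomethylated lysine 4 of histone H3. It marks enhancers that are in use or held ready, and it often flanks active start sites, which themselves carry higher methylation states. In CUT&Tag an antibody brings a transposase to the mark, and the fragments cut there are sequenced. SEACR joins covered bases into blocks and gives each block a total signal, a maximum signal and the position at which the pileup is highest. The files list the top 1% of blocks by total signal in each replicate. No scaling of the signals to depth is stated, so a peak is described by its percentile, the percent of its replicate's peaks with a total signal at or below its own. Absence from a list does not show that a gene lacks H3K4me1.

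The windows below are 201 bases of GRCm38, plus strand, centred on the median place of highest pileup. They are shown because, for each of the 3 genes with peaks in every replicate, this was the region where the maxima of the replicates lay closest together. Capitals mark the span from the start to the end of those places over the replicates. In Ebf3 (chr7:137301781-137301981, intron 6) the centres lay within 6 bases of each other, in Ebf1 (chr11:44738869-44739069, intron 6) within 32 bases and in Ebf2 (chr14:67303688-67303888, intron 7) within 38 bases. None of the 3 windows holds the core CCCNNGGG.
Ebf3 intron: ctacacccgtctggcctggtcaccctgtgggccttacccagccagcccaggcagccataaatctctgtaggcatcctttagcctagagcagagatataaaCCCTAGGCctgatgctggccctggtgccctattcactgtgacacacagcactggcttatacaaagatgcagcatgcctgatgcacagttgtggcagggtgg
Ebf2 intron: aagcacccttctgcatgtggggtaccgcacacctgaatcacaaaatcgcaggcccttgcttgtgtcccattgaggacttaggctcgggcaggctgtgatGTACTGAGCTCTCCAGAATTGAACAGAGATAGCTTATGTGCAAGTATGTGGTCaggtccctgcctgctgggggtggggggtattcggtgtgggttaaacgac
Ebf1 intron: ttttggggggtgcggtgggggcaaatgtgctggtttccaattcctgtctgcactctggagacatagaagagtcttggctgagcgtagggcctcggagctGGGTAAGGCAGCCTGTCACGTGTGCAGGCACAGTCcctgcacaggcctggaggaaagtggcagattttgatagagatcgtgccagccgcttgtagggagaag

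Promoters of 300 bases, from 250 before to 50 after a start site, were taken from RefSeq on GRCm38.p6, in which 3 of the 4 members have an entry. They are shown because the promoters of Ebf3 and Ebf4 lay in a peak only in replicate 2, while the Ebf1 promoter printed here lay wholly in a peak in all 3 replicates. Capitals mark the core CCCNNGGG, which reads the same on both strands and occurs once, in the Ebf3 promoter. Of the 32851 promoters in the RefSeq table, 13.7% hold it. The Ebf3 promoter (chr7:137314396-137314695, minus strand) has a GC content of 77%, the Ebf4 promoter (chr2:130295689-130295988, plus strand) 74.3% and the Ebf1 promoter (chr11:44619978-44620277, plus strand) 53%, against a median of 52.7% over the table. The shares of the Ebf4 promoter inside a peak were 0, 91.3 and 0% in replicates 1, 2 and 3, and those of the Ebf3 promoter 0, 100 and 0%. The replicate 2 peaks over the Ebf3 and Ebf4 promoters lay at percentiles 94.1 and 0.301 of total signal in their list. The replicate 3 peak over the printed Ebf1 promoter had a total of 19493, at percentile 0.879. That was just above the minimum of 19337 in that list. A second Ebf1 entry (chr11:44617850-44618149, plus strand, GC content 36.7%), not printed, lay in no peak.
Ebf3 promoter: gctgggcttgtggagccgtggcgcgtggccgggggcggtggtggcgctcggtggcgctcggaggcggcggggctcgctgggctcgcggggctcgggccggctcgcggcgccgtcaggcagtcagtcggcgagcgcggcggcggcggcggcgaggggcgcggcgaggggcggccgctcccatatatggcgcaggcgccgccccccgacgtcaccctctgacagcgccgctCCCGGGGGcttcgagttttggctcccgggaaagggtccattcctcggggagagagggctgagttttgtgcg
Ebf4 promoter: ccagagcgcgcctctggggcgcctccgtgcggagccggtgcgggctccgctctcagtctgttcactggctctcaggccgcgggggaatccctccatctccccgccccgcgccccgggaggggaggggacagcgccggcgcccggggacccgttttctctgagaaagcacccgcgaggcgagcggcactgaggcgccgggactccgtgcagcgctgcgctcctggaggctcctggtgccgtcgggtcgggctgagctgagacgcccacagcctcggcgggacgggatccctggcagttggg
Ebf1 promoter: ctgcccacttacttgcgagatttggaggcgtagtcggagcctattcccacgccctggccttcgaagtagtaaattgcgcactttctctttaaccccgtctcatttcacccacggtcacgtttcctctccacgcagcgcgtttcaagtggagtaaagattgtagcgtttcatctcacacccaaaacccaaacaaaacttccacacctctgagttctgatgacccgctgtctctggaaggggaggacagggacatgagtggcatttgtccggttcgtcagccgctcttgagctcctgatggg

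As a family, the genes held a similar small share of the peaks of each list and a slightly larger share of its signal, of which Ebf3 held the largest part. Their peaks numbered 36.3 ± 6.81 per replicate (SD, n = 3), which was 0.262, 0.239 and 0.243% of the lists of replicates 1, 2 and 3. They held 0.283, 0.277 and 0.305% of each list's total signal. Over a gene body or within 5 kb lay 39, 28 and 31 of them, and 5, 3 and 3 lay further away. The median peak lay at percentile 43.5, 42.6 and 62.7 of its list, below the middle in replicates 1 and 2 and above it in replicate 3. Above percentile 90, where 10% of each whole list lies, were 5 of 44, 5 of 31 and 4 of 34 peaks, and above percentile 95 lay 4, 4 and 3. The median peak length was 2621, 3206 and 3661 bp, against 2981, 3682 and 3352 bp over the lists.

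All 4 genes had a peak over the body or within 5 kb in replicates 1 and 2, and 3 of 4 did in replicate 3, where the shares of all protein-coding genes were 24.9%, 22.6% and 19.6%. Such a peak in all 3 replicates was found for Ebf1, Ebf2 and Ebf3, or 75% of the members, against 15.5% of all protein-coding genes and 46% of genes of at least 100 kb. The 3 genes are all longer than 100 kb and Ebf4 is not. With 1 group and 3 replicates, no difference between genes was tested, since flipping the signs over 3 replicates cannot give a p below 0.25, and the genes are set apart below only by whether their replicate values overlap.

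**Figure D1:**
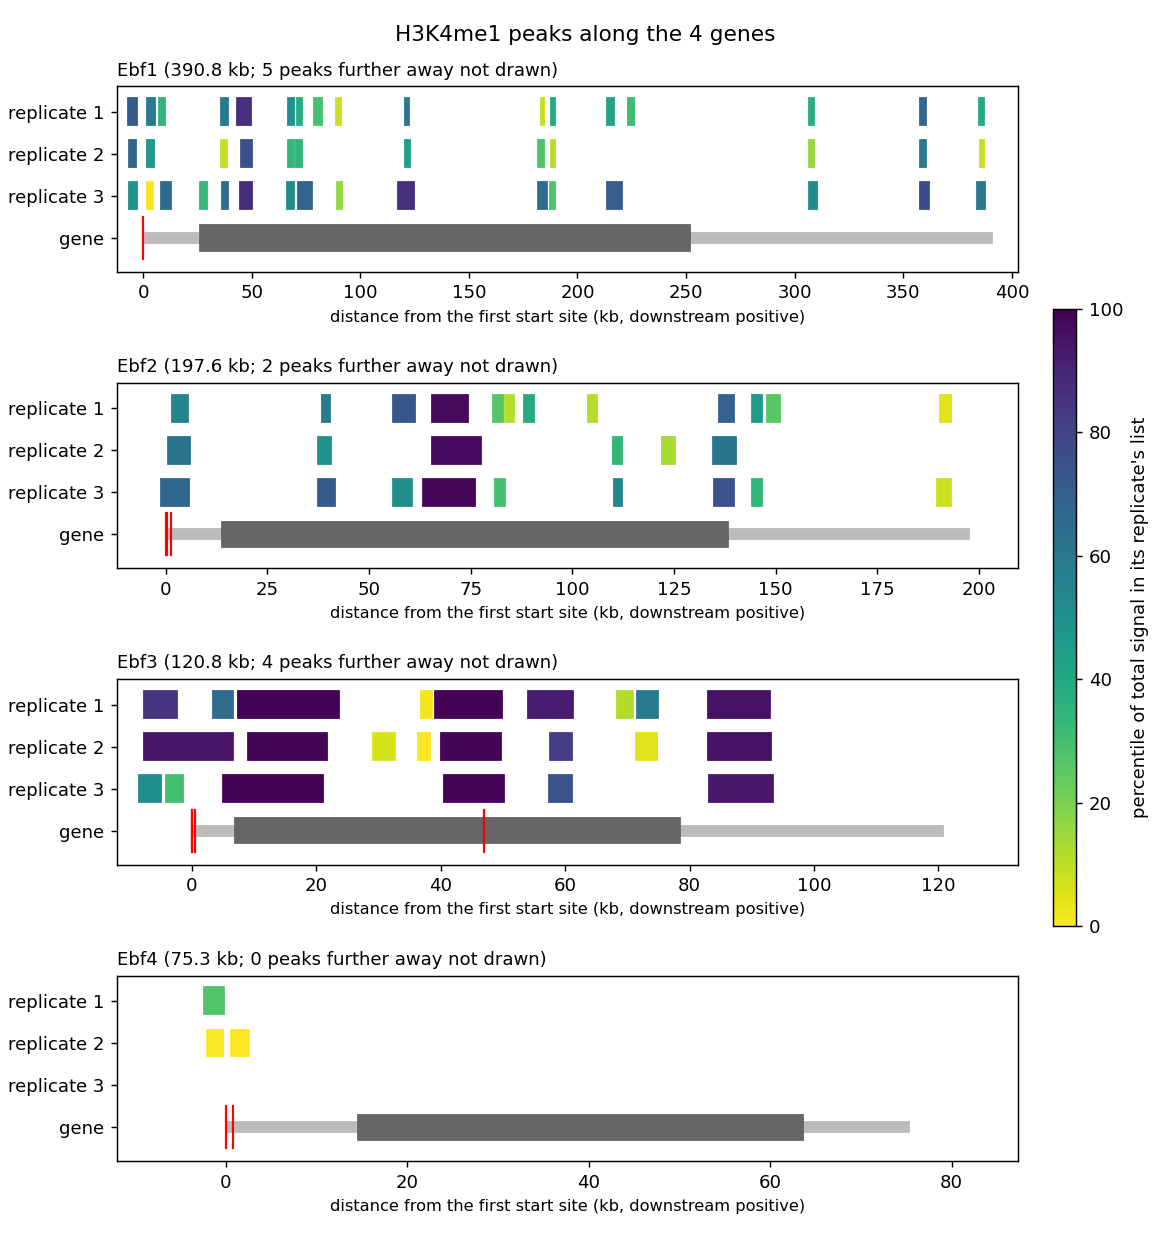
H3K4me1 peaks of replicates 1, 2 and 3 along Ebf1, Ebf2, Ebf3 and Ebf4, by distance in kb from the gene's first start site, with downstream to the right. Each block is a peak, coloured by the percentile of its total signal within its replicate's list. The light bar is the gene body, the dark bar its longest intron and the red lines the annotated start sites. Ebf3 has the longest and highest-ranked blocks, Ebf1 the most blocks, and Ebf4 has blocks only next to its start.

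Ebf3 (ENSMUSG00000010476.14, chr7:137193673-137314445, minus strand, 120.8 kb) was the most densely marked member. Peaks covered 44.1, 43.2 and 32.5% of its body with 5 kb on each side in replicates 1, 2 and 3, or 40.0 ± 6.45% (SD, n = 3). The lowest of these values lay above the highest value of any other member. A mean covered share above this was found for 368 of the 21755 genes, and for 28 of the 2022 genes with a body length within 1.5 times that of Ebf3, whose median was 0.677%. The gene had 11, 10 and 6 peaks, or 9 ± 2.65, and their median percentile was 65.0, 72.5 and 84.0. It took 0.15, 0.165 and 0.120% of the lists' signal, again more in every replicate than any other member took in any.

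The signal of Ebf3 was gathered in 3 long regions found in every replicate, each with its highest pileup in an intron. The region with the highest mean percentile of the family spanned chr7:137290825-137322874, ran from intron 6 across the first exons to beyond the start site, and was 32050 bp long after merging. In replicate 1 it held 3 peaks and in replicates 2 and 3 it held 2 and 3. Only in replicate 2 did a peak span the first start site and introns 1 to 3, and the merged length rests on that peak. Its highest peak was 16157, 12628 and 16104 bp long and had a total signal of 368756, 429279 and 357074 in replicates 1, 2 and 3, at percentiles 99.3, 98.7 and 99.5. The maximum signal was 199, 207 and 96, and its place, 12.6 kb downstream of the first start site, is the Ebf3 window printed above. In mean percentile this region ranked 91 among the 8916 regions found in all 3 replicates.

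Further into intron 6, chr7:137264298-137275355 ranked 94 with totals of 370710, 490028 and 291645 and percentiles of 99.3, 99.1 and 99.1. The maxima were 204, 261 and 135. This region contains an internal start site of Ebf3 annotated in GENCODE vM21, 46.9 kb downstream of the first. That site lay inside a peak in all 3 replicates, as did no other GENCODE start site of the family. The third region, chr7:137220969-137231470 in intron 8, had totals of 156002, 243215 and 127134 and percentiles of 95.4, 95.5 and 93.5. The remaining region in all replicates, chr7:137253205-137260474, named after its values were seen, was lower, at percentiles 92.1, 81.9 and 74.6.

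Several Ebf3 regions were missing from replicate 3. Of the 10 regions 4 were found in 3 replicates, 4 in 2 and 2 in 1, and all 6 that were not shared by all were absent from replicate 3. Without replicate 3, the regions shared by the remaining lists numbered 9 instead of 4. Sharing by fewer lists tends to raise this count, which was 4 without replicate 1 and 5 without replicate 2. Over the whole series, shared regions numbered 8916 in all 3 lists. They numbered 9319 without replicate 1, 10719 without replicate 2 and 11674 without replicate 3, so the series also rose most without replicate 3. Both distal regions of Ebf3, 228 and 176 kb downstream of the start site, were among those absent from replicate 3. The more distant overlaps Mgmt, the neighbouring gene for a DNA repair protein, which had 9, 6 and 3 peaks over its body or within 5 kb. The peaks of this region in replicates 1 and 2 are among these, so they are counted for both genes. The rule gives the region to Ebf3 by its nearest start site only. The other neighbour, 9430038I01Rik, had no peak in any replicate.

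Ebf2 (ENSMUSG00000022053.13, chr14:67233292-67430918, plus strand, 197.6 kb) had a single dominant region. Peaks covered 20.1, 15.3 and 21.2% of the gene, or 18.8 ± 3.10% (SD, n = 3), which was above that of 93.7% of all genes. Its peaks numbered 13, 6 and 10, or 9.67 ± 3.51, with replicate 2 lowest. The values for number of peaks overlap those of Ebf3, and in replicate 2 Ebf2 had fewer peaks than Ebf3 while in replicates 1 and 3 it had more.

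The dominant region of Ebf2, chr14:67296494-67310757 in intron 7, was 14264 bp long and lay 70.5 kb downstream of the start site. Its totals were 216148, 297279 and 240054, with maxima of 138, 156 and 104. The percentiles were 97.5, 97.0 and 98.4. This region alone held 41.7, 57.6 and 42.1% of the signal of all Ebf2 peaks. It ranked 268 among the 8916 regions in all 3 replicates, and it overlaps Gm6878, an antisense gene, so that the mark there cannot be given to either gene by position alone.

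The other shared regions of Ebf2 had lower ranks. The region chr14:67368015-67373662 at the end of intron 7 had totals of 42163, 56494 and 58582, at percentiles 69.3, 61.6 and 75.0. At the start of the gene, chr14:67232013-67239348 had totals of 30345, 56225 and 48290 and percentiles of 54.7, 61.4 and 67.3, and it also overlaps the lincRNA gene Gm20675. Of the 15 regions of Ebf2, 4 were in 3 replicates, 6 in 2 and 5 in 1. Without replicate 2 the shared regions numbered 9 instead of 4, against 5 without replicate 1 and 4 without replicate 3. The series had 10719 without replicate 2 instead of 8916. Of the 5 regions in 1 replicate, 4 were in replicate 1. A region in replicates 1 and 3 only, 56.9 kb downstream of the start, had a maximum of 130 in replicate 1 and 25 in replicate 3 and was named after its values were seen. Neither neighbour stood out, with no peak for Ppp2r2a and 1, 2 and 1 peaks for Cdca2.

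Ebf1 (ENSMUSG00000057098.14, chr11:44617317-45008091, plus strand, 390.8 kb) had the most peaks, and they were of middling rank. The numbers were 19, 13 and 18, or 16.7 ± 3.21 (SD, n = 3), of which 17, 12 and 16 lay over the body or within 5 kb. By the mean of the latter, 38 genes of 21755 had more, while genes of like length had a median of 1.33. Peaks covered 12.02, 8.03 and 16.4% of the gene, or 12.2 ± 4.19%. In each replicate this was below the value of Ebf2, although the ranges of the genes overlap. Genes of like length had a median covered share of 1.25%, and 56 of these 540 genes lay above Ebf1.

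No peak of Ebf1 lay above percentile 90 in any list, whereas Ebf2 and Ebf3 had such peaks in every list. The highest was at percentile 86.3, 76.0 and 87.6, and the median at 39.7, 34.6 and 62.7. The strongest peak held 14.1, 15.3 and 11.2% of the gene's signal. In each replicate this was less than the share of the strongest peak in Ebf2 or Ebf3, where it was 30.1, 30.1 and 39.8% for Ebf3.

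The highest-ranked region of Ebf1, chr11:44660688-44667436 in intron 6, lay 48.1 kb downstream of the start and overlaps the antisense gene Gm12158. Its totals were 78435, 81757 and 90098, at percentiles 86.3, 76.0 and 87.6. The region chr11:44974824-44979290 in intron 11 followed with totals of 39513, 53182 and 61853 at percentiles 66.6, 58.8 and 76.8. The region of the Ebf1 window printed above, chr11:44734852-44741930, had totals of 34232, 40431 and 84034, at percentiles 60.4, 43.7 and 86.0. Its peak was 1687, 2239 and 7079 bp long, and its maxima were 113, 91 and 67. By maximum signal this peak lay at percentile 95.6, 87.6 and 87.4.

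Most regions of Ebf1 were found in every replicate. Of the 20 regions 13, or 65%, were in 3 replicates, 4 in 2 and 3 in 1. The share in all 3 was 26.7% for Ebf2, 40% for Ebf3 and 46.3% over the whole series. Most shared regions of Ebf1 rested on a peak from the weaker 50% in at least 1 list. When only the stronger 50% of each list was used, they numbered 2 instead of 13. Those of Ebf2 numbered 3 instead of 4 and those of Ebf3 were again 4. The like count over the whole series was not taken. The 2 downstream regions, 470.2 and 521.4 kb from the start site, lie in the long gap of 844 kb to the next gene, Clint1, which had 0, 0 and 1 peaks. On the other side Rnf145 had 1 peak in each replicate.

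Ebf4 (ENSMUSG00000053552.14, chr2:130295169-130370481, plus strand, 75.3 kb) had the fewest listed peaks of the 4 genes. It had 1, 2 and 0 peaks, covering 2.59, 4.37 and 0% of the gene, or 2.32 ± 2.20% (SD, n = 3). All of these values lay below the lowest value of each other member. Its mean covered share was nevertheless at or above that of 76.7% of all genes and of 70.9% of the 2876 genes of like length, whose median was 0%. The peak in replicate 1 ended 0.176 kb before the start site and had a total of 19411, at percentile 27.4. In replicate 2 the same place had a total of 24348 and a peak in intron 1 had a total of 24307, at percentiles 0.524 and 0.301, just above that list's minimum of 24247. The minimum was 14265 in replicate 1 and 19337 in replicate 3, so the Ebf4 peaks of replicate 2 sat at the edge of being listed. In replicate 3 the nearest peak to the start site was 111.6 kb away. The neighbours Idh3b and Cpxm1 had 0, 0 and 0 and 1, 1 and 0 peaks.

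**Figure D2:**
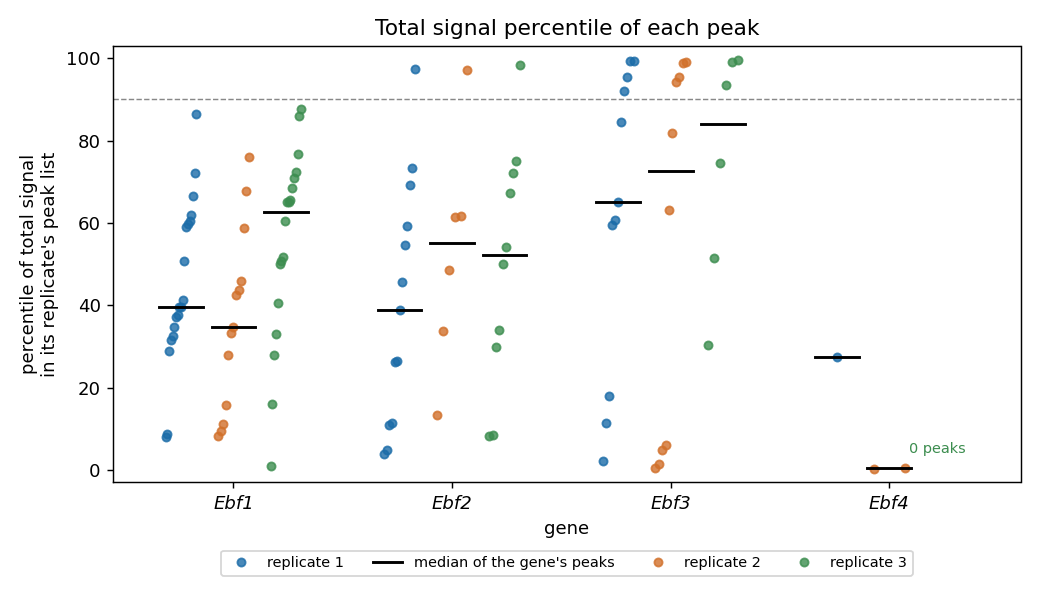
Percentile of the total signal of each peak within its replicate's list (vertical axis) for the 4 genes, with 1 point per peak and a black line at the median of the gene's peaks in that replicate. The dashed line is percentile 90. Ebf3 has 4, 4 and 3 peaks above it, Ebf2 1 in each replicate, and Ebf1 and Ebf4 none.

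Set in order, the covered share fell from Ebf3 to Ebf2, Ebf1 and Ebf4. Ebf3 lay above Ebf2 and Ebf1 above Ebf4 with no overlap of replicate values, while Ebf2 and Ebf1 overlapped. By the median percentile of total signal the lowest Ebf3 value of 65.0 was above the highest of 62.7 in the others. By the median percentile of maximum signal, which is not a sum over a peak's length, Ebf3 had 63.9, 54.2 and 82.3 and Ebf2 38.5, 59.6 and 51.6, so these genes overlapped. Ebf1 had 43.2, 46.6 and 52.8 on that measure.

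The 4 genes share an intron plan, in which a single long intron takes up most of the body, and the peaks in it were unlike. In the main annotated transcript this is intron 6 of Ebf1 (225.6 kb, 57.7% of the body), intron 7 of Ebf2 (124.6 kb, 63.1%), intron 6 of Ebf3 (71.5 kb, 59.2%) and intron 6 of Ebf4 (49.0 kb, 65.1%). It held 12 of the 17 regions inside the body of Ebf1, 10 of 14 in Ebf2, 7 of 8 in Ebf3 and none of 1 in Ebf4. Peaks covered 58.6, 48.5 and 38.5% of it in Ebf3, 22.6, 19.5 and 23.8% in Ebf2, 14.2, 9.0 and 19.8% in Ebf1 and 0% in Ebf4 in each replicate. The ranges of Ebf3 and Ebf2 do not overlap, and those of Ebf2 and Ebf1 do by a little. Over the family, 39 regions had their centre in an intron, 7 up- or downstream and 1 in an exon, the last in Ebf1. The rule takes every peak over bodies that are mostly intron, which favours centres in introns. The share over the whole series was not taken.

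Start sites of the members lay inside a peak in different replicates for different genes. Of the 10 annotated start sites of protein-coding transcripts, 8 lay inside a peak in at least 1 replicate, against 9.4% of all 41135 protein-coding start sites. By replicate the numbers were 1, 6 and 4, against 6.49, 7.61 and 3.44% of all sites. The 10 sites are not separate units. At the start of Ebf2, 3 sites lie within 1.352 kb, and at that of Ebf3, 3 lie within 0.459 kb, so 1 peak can hold several. The 3 sites at the start of Ebf2 lay inside a peak in replicate 3, and 1 of them also in replicate 2. The 3 sites at the start of Ebf3 lay inside a peak in replicate 2 only, where a peak of 14328 bp, the gene's longest in that replicate, spanned them. The nearest peaks of the other replicates lay 1.4 to 2.8 kb away. Neither start site of Ebf4 was inside a peak in replicates 1 and 3, and 1 was in replicate 2. The start site of Ebf1 was outside in each, with peaks beginning 1.67, 1.64 and 1.6 kb downstream. The Ebf1 promoter printed above belongs to a RefSeq start further downstream, which is not among these 10 sites.

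These sites differ in base composition, with a GC content of 71.7 to 73.0% within 500 bases of the Ebf3 starts, 70.5 and 75.7% at Ebf4, 51.7 to 56.2% at Ebf2, 52.05% at Ebf1 and 51.05% at the internal site of Ebf3. Base composition also moved with the replicate over the whole series. The 8916 regions in all 3 replicates were put into 10 equal classes by GC content, and the log2 ratio of a region's share of the list's signal, replicate 3 over replicate 2, had a median of 0.92 in the lowest class and -0.90 in the highest. For replicate 1 over replicate 2 the medians of the lowest and highest class were -0.05 and -0.24, a smaller difference. The classes are by the GC content of whole regions, which reached 61.9%, below the values at the Ebf3 starts. For the 13 shared Ebf1 regions, the replicate 3 over replicate 2 log2 ratio had a median of 0.77 and was above 0 in 11. Over the series it was above 0 in 4802 of the 8916 regions. The median GC content over all Ebf1 regions was 43.7%. The class of the series that holds 43.7% had a median of 0.61. For Ebf3, at a median GC content of 48.8%, the log2 ratio was below 0 in 4 of 4 regions with a median of -0.37, against -0.15 in its class. The Ebf2 regions lay above 0 in 4 of 4, with a median of 0.32. The median GC content over all Ebf2 regions was 46.3%, and the class that holds it had a median of 0.13. The 4 include the region at the start of Ebf2, with a GC content of 53.9% and a log2 ratio of 0.19. The part of base composition in the lower covered share of Ebf3 and the higher covered share of Ebf1 in replicate 3 was not tested. Its part in which start sites lay inside a peak was not tested either.

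**Figure D3:**
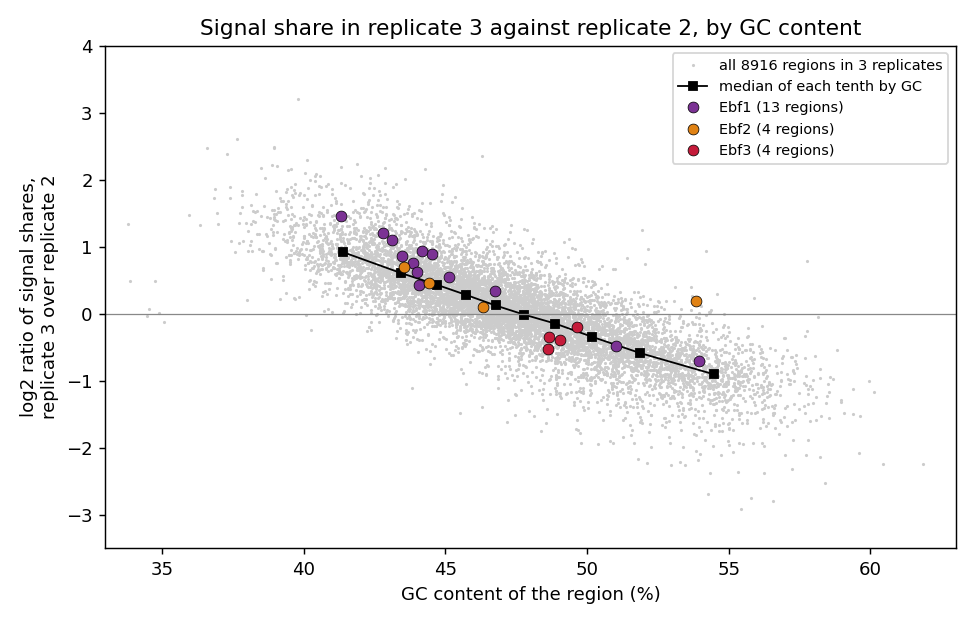
Log2 ratio of a region's share of the list's signal in replicate 3 over replicate 2 (vertical axis) against the GC content of the region in percent (horizontal axis), for the regions found in all 3 replicates. Grey points are the 8916 regions of the series, black squares the median of each of the 10 GC classes, and coloured points the 13 regions of Ebf1, 4 of Ebf2 and 4 of Ebf3. The medians fall from 0.92 to -0.90, the Ebf3 points lie below 0, and 11 of the 13 Ebf1 points lie above 0.

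Regions of the family recurred between replicates at a rate near that of the series. Of the 47 regions 21 were in 3 replicates, 15 in 2 and 11 in 1, and 44.7% in all 3 compares with 46.3% of all regions. Of the 11 regions in 1 replicate, 7 were in replicate 1, 3 in replicate 2 and 1 in replicate 3. The places of highest pileup lay a median of 527 bases apart across replicates, against 514 in the series, and within 100 bases in 5 of 21 regions, or 23.8% against 21.3%. The core CCCNNGGG was in the 500 bases around the place of highest pileup in 5 of the 21 shared regions, 4 in Ebf1 and 1 in Ebf3, or 23.8% against 19.1% of all regions in 3 replicates. This count depended on the replicates, with 2 of 22 regions, or 9.09%, when replicate 1 was left out and 17.6% in the series. The motif was also more frequent where GC content was higher, from 8.86% in the lowest GC class to 31.3% in the highest. A match gives the letters only, and was not read as a site of binding.

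Of the proteins known to bind early B-cell factors, both zinc finger genes were heavily marked. Zfp423 had 22, 19 and 16 peaks over its body or within 5 kb, covering 36.2, 31.2 and 23.9% of it, or 30.4 ± 6.19% (SD, n = 3). Zfp521 had 13, 8 and 13 peaks, covering 17.7, 17.1 and 23.5%, or 19.4 ± 3.57%. All values of Zfp423 lay above those of Ebf2, and its highest value reached into the range of Ebf3. Zfp521 overlapped Ebf2, and its highest peak reached percentile 97.9, 97.2 and 99.5, much as for Ebf2.

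Genes known as targets or partners of the family in other tissues were marked in a few cases. Of 12 B-lineage genes, 6, 4 and 3 had a peak in replicates 1, 2 and 3 and 2 had one in all 3, Cd79b, a part of the B-cell receptor, at 28.9 ± 9.59% covered, and Foxo1, a forkhead factor found in many tissues, at 15.9 ± 1.97%. Of 10 adipocyte genes, 3 had a peak in all 3 replicates: Prdm16, a regulator of brown fat that is also used in craniofacial tissue, at 45.6 ± 10.6%, Cebpa, a factor of fat and skin cells, at 44.2 ± 2.09%, and Cidea at 9.98 ± 2.56%. Adipoq, which encodes a hormone of mature fat cells, was among the 6 without any. Of 8 olfactory genes, Adcy3 and Ano2 had a peak in all 3 and 5 had none in any. Of 10 neuronal genes, 2, 4 and 0 had a peak by replicate and none had one in all 3. The highest mean covered share of this list was that of Neurog2, a factor of neuron formation, with 21.6, 19.8 and 0%. These counts stand beside 15.5% of all genes with a peak in all 3 replicates. No list was tested, and a peak within 5 kb of a short gene can belong to a neighbour.

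**Figure D4:**
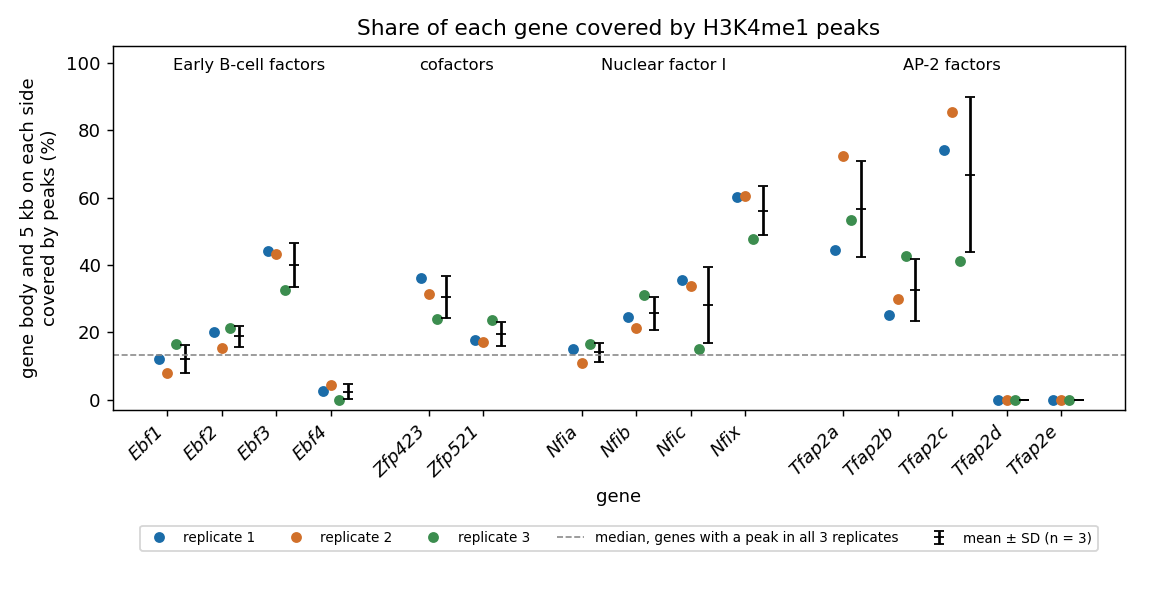
Percent of each gene body with 5 kb on each side that lay inside H3K4me1 peaks (vertical axis), for the early B-cell factors, their cofactors, the nuclear factor I genes and the AP-2 genes. Points are replicates, black marks the mean ± SD (n = 3), and the dashed line the median of 13.2% over the 3374 genes with a peak in all 3 replicates. Ebf3 lies above this line in every replicate, Ebf2 also, Ebf1 on both sides of it and Ebf4 below.

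Other small families of transcription factors that act in the embryonic face had covered shares on both sides of those of the early B-cell factors. The nuclear factor I genes had a peak in all 3 replicates in 4 of 4 cases, with mean covered shares of 14.1% for Nfia, 25.6% for Nfib, 28.0% for Nfic and 56.1% for Nfix. Nfix, at 60.1, 60.5 and 47.6%, lay above every value of Ebf3, and Nfia, at 15.0, 11.0 and 16.4%, overlapped Ebf1. The AP-2 genes had such peaks in 3 of 5 cases. These were Tfap2a, Tfap2b and Tfap2c, while Tfap2d and Tfap2e had none in any replicate. Their mean covered shares were 56.7, 32.6 and 66.8%.

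By the covered share over the 3 replicates, the genes most like each member among those of similar length were found by the distance of log2(percent covered + 1). For Ebf3 these were Nfatc1 (44.0, 43.8 and 31.6%), Dab2ip (43.8, 46.6 and 32.8%) and Sh3bp4 (41.6, 43.6 and 29.5%), of 2021 genes compared, at distances of 0.04, 0.11 and 0.16. For Ebf2 they were Zeb2 (20.3, 16.2 and 22.7%), Ccbe1 and the cofactor gene Zfp521, of 1169 compared, at distances of 0.12, 0.26 and 0.27. For Ebf1 they were Fggy, Ppp1r9a and Gm20696, of 539 compared, at distances of 0.26, 0.27 and 0.28. As for Ebf3, replicate 3 had the lowest value in each of its 3 like genes. As for Ebf1 and Ebf2, replicate 2 had the lowest value in each of their 6. The measure of likeness favours both patterns, since it picks genes by these same replicate values.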

How the data were processed

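H3K4me1 was profiled by CUT&Tag in 3 whisker pads, and 3 IgG samples of the series were not analysed here. Per the labels, the authors used Bowtie2 2.3, SAMtools 0.1.19, bedtools and SEACR 1.3 on mm10. Peaks had been called per replicate in the stringent mode, with no IgG control, as the top 1% of blocks. The deposited values are each block's total signal and maximum signal, whole numbers with no scaling stated, so only ranks and shares within a list were compared between replicates. The lists hold 12969 to 16788 peaks. The number of reads was not measured here, and the lower limit of total signal differed between lists, from 14265 to 24247.

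Genes and start sites came from GENCODE vM21 (basic set, chromosomes 1 to 19 and X) and bases from GRCm38, within which all peak ends fall. Peaks were assigned by overlap with the gene body and 5 kb on each side, or, further away, by the start site nearest to their midpoint. They were merged across replicates where at least 1 base was shared and counted with Python 3.11.15 and pandas 2.3.3. These steps were checked on simulated peaks, with 15 of 15 known values recovered. No test was planned, since there is 1 group of 3 replicates, and values are given by replicate with mean ± SD.

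The members and the gene lists were chosen with earlier results of these data known. Genes were named by a fixed rule: the members, their nearest protein-coding genes, all cofactors, up to 4 genes of each other list (highest covered share, or no peak), and the 3 genes most like each member by body length within 1.5 times and covered share. Regions named were the 3 of each member with the highest mean percentile among those in all replicates, and others are said to be chosen after their values were seen or are given by count. Alternatives were the strongest 10000 peaks, the stronger 50%, other distances, other measures of signal, other overlaps and motif windows, and leaving out each replicate.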

Additional observations from a re-analysis of the deposited data

How the results depend on the processing

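Of 50 alternative values of the 7 main results, 41 stayed within 1.5 times the count, within the spread between replicates or, for the motif share, within its exact binomial interval, and 9 moved. That interval is wide: motif windows of 200 and 1000 bases gave 14.3 and 38.1% against 23.8%, and leaving out replicates 1 and 2 gave 9.09 and 12.9%. With the strongest 10000 peaks of each list, the family had 24 peaks per replicate instead of 36.3, a mean median percentile of 64.0 instead of 49.6 and a mean covered share over the genes of 15.2% instead of 18.3%. With the stronger 50%, these were 18.7 peaks, 72.1 and 14.1%, and 9 regions were shared by all replicates instead of 21. These moves come from the construction of those settings, which drop weak peaks. Start sites within 1 kb of a peak numbered 5.67 per replicate against 3.67 inside one, and the motif with T before and A after the core was in 4.76% of shared regions against 23.8% (1.96% and 19.1% in the series). Leaving out each replicate in turn gave 32.5 to 39 peaks, percentiles of 43.0 to 53.1, 22 to 31 shared regions, covered shares of 17.6 to 18.7%, 3 to 4 genes with a peak in all replicates, 2.5 to 5 start sites and a motif share of 9.09 to 22.2%. With a replicate left out, counts shared by all replicates rest on fewer lists, which tends to raise them. For the percentile and the covered share, leaving out 1 replicate cannot move the mean beyond the spread between replicates. Those settings could therefore only fall among the 41 that stayed. The order of the genes by covered share was Ebf3, Ebf2, Ebf1 and Ebf4 under each of these settings. No paired analysis was possible because the results come from 1 group and from no test, and the IgG libraries with matching replicate numbers are not analysed here. The number of reads was not measured, so the part of depth in which weak peaks are listed was not tested.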
